A study of Mus musculus with 6 samples.

Results

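A set of 58 protein-coding genes had its lowest RNA level in bone marrow neutrophils of mice 1 week after tumor injection. Levels were higher both in naive mice and in mice 3 weeks after injection. The genes were found by a rule on CPM, the counts of a gene scaled by the total of its library. The rule asked for a naive mean of at least 5 CPM, for both one-week libraries to lie below all 4 other libraries, and for a one-week mean at least 1.5-fold below both the naive and the three-week mean. Of 38887 gene identifiers, 21213 were protein-coding and 7242 of these reached the naive level. In 785 of the 7242 genes (10.8%) both one-week libraries were lowest, and 59 of these passed the fold limit. Rps27a was left out with the other genes whose symbols mark ribosomal, respiratory chain, histone, replication or proteasome proteins, which left 58. The values at 1 week chose the genes, so their low level there is a description and not a result. The rule set no condition on the difference between the three-week and naive groups, although it asked both to lie above the one-week group.

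Bone marrow came from naive C57BL/6 mice and from mice given LL2 cells into a vein 1 or 3 weeks earlier. LL2 is a Lewis lung carcinoma line, here carrying luciferase, that forms tumors in the lung. Neutrophils were selected with beads for Ly6G, a neutrophil surface antigen, and total RNA was sequenced. There were 2 libraries per group, which the labels number as replicate mice without giving an age or saying whether cells were pooled, so p-values measure only the spread between these libraries. The question of the design was how these cells differ between an early and an advanced stage of a lung tumor. The libraries held between 11994158 and 14127919 counts, and 3 counts, the smallest number taken as detected, were worth 0.212 to 0.25 CPM. The 16 neutrophil markers summed to between 304079 and 325466 CPM in every library, although Ly6g itself was listed at only 0.486 to 2.29 CPM.

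In the marrow, neutrophils mature from dividing precursors to cells ready for release, and stress hormones and cytokines act on both steps. Glucocorticoids bind a nuclear receptor that switches on genes with anti-inflammatory products, among them Tsc22d3, Dusp1 and Nfkbia. The last encodes the inhibitor that holds the transcription factor NF-kB in the cytoplasm and is itself switched on by NF-kB, which closes a feedback loop. Cells also regulate RNA after transcription, through decapping and decay factors such as Ddx6 and Xrn1. All of these genes were in the set.

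The sequences before the start of 4 genes are shown because these genes stood for the hormone, phosphatase, inhibitor and protein-folding roles in the set. Each run is the 250 bases upstream of the RefSeq gene start, read 5′ to 3′ on the strand of the gene in build GRCm38.p6. Capitals mark a match to a motif written for the search. In Nfkbia (chr12:55492648-55492897, minus strand) the match is to the NF-kB motif and begins 29 bases before the start. In Dusp1 (chr17:26508473-26508722, minus strand) capitals mark the cAMP response motif TGACG, which had 3 matches counting both strands. In Pdia3 (chr2:121413652-121413901, plus strand) capitals mark the CCAAT box, with 2 matches at 79 and 29 bases. In Tsc22d3 (chrX:140600523-140600772, minus strand) capitals mark the glucocorticoid response motif AGAACA, seen on its other strand at 185 bases. RefSeq gives 3 starts for Tsc22d3, of which the one nearest the annotated gene boundary is shown, and counts per gene do not separate them. For Dusp1 the gene model of GENCODE reaches 53656 bases farther upstream than the RefSeq start used here.
Nfkbia: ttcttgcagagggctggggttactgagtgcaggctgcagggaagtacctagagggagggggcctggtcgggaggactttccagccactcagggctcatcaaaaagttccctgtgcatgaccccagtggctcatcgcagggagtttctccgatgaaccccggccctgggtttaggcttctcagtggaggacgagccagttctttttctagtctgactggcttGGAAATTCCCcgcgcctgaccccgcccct
Dusp1: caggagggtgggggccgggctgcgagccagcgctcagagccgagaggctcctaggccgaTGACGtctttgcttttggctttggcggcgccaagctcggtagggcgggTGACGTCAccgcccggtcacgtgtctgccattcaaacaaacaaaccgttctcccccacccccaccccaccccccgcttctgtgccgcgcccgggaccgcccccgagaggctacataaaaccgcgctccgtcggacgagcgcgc
Pdia3: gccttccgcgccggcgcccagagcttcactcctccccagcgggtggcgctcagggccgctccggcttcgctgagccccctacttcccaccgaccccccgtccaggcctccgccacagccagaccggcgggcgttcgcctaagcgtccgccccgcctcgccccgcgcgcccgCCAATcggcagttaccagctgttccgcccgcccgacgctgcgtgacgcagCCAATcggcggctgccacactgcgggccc
Tsc22d3: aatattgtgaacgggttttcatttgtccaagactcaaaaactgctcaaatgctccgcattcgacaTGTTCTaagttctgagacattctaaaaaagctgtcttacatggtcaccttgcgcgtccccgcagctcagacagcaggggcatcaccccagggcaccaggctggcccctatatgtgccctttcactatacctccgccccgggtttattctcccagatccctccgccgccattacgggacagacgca

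Of the 58 genes, 44 had an upstream sequence in the RefSeq table, as did 5857 of the genes that reached the naive level. A CCAAT box, on either strand, stood in 7 of the 44 upstream sequences (15.9%) and in 36.5% of the 5857. The GC box GGGCGG was in 72.7% against 62.1%, the E-box CACGTG in 13.6% against 9.19%, and the glucocorticoid response motif in 13.6% against 10.4%. The motif TGACG was in 22.7% against 29.4%, CCACG of ER stress genes in 34.1% against 43.0%, CCGGAA of ETS factors in 15.9% against 25.5%, and the NF-kB motif in 6.82% against 8.78%. The motifs overlap in part, since TGACG and CCACG can share bases with an E-box. Median GC content of the upstream sequences was 63.6% against 60.4%. These shares are descriptions of letters, with no test.

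The 58 genes covered a wide range of levels. Naive means ran from 5.23 to 1999 CPM, with 9 genes at 100 CPM or more, 19 between 20 and 100 and 30 under 20. The ratio of the naive to the one-week mean was between 1.51 and 5.93 with a median of 1.73, and the ratio of the three-week to the one-week mean between 1.51 and 8.28 with a median of 1.93. Summed over the genes, the level was 7634 and 5555 CPM in the naive libraries, 3769 and 3633 CPM at 1 week, and 6513 and 7673 CPM at 3 weeks. The rule forces the one-week sums to be the lowest, so nothing is read from that order. The one-week sums differed little from each other, while the 2 naive sums lay far apart. Dusp1 carried a large part of each sum. It had 2445 and 1553 CPM in naive libraries, 1156 and 1059 at 1 week, and 1659 and 2722 at 3 weeks. At the limit of the rule, Cmip and Rnd1 were among those just inside, each with a smaller ratio of 1.51, and Tiparp, Klf9 and Eif4e3 just outside with 1.497, 1.496 and 1.493. Tiparp had 57.8 and 42.2 CPM in naive libraries, 38.7 and 28.1 at 1 week, and 56.0 and 58.4 at 3 weeks. Klf9 had 14.4 and 11.8 CPM, then 8.15 and 9.39, then 24.4 and 21.9, and Eif4e3 had 117 and 102 CPM, then 78.8 and 63.9, then 118 and 95.2. The genes just outside were drawn from those with both one-week libraries below all others, so that order is no result.

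**Figure D1:**
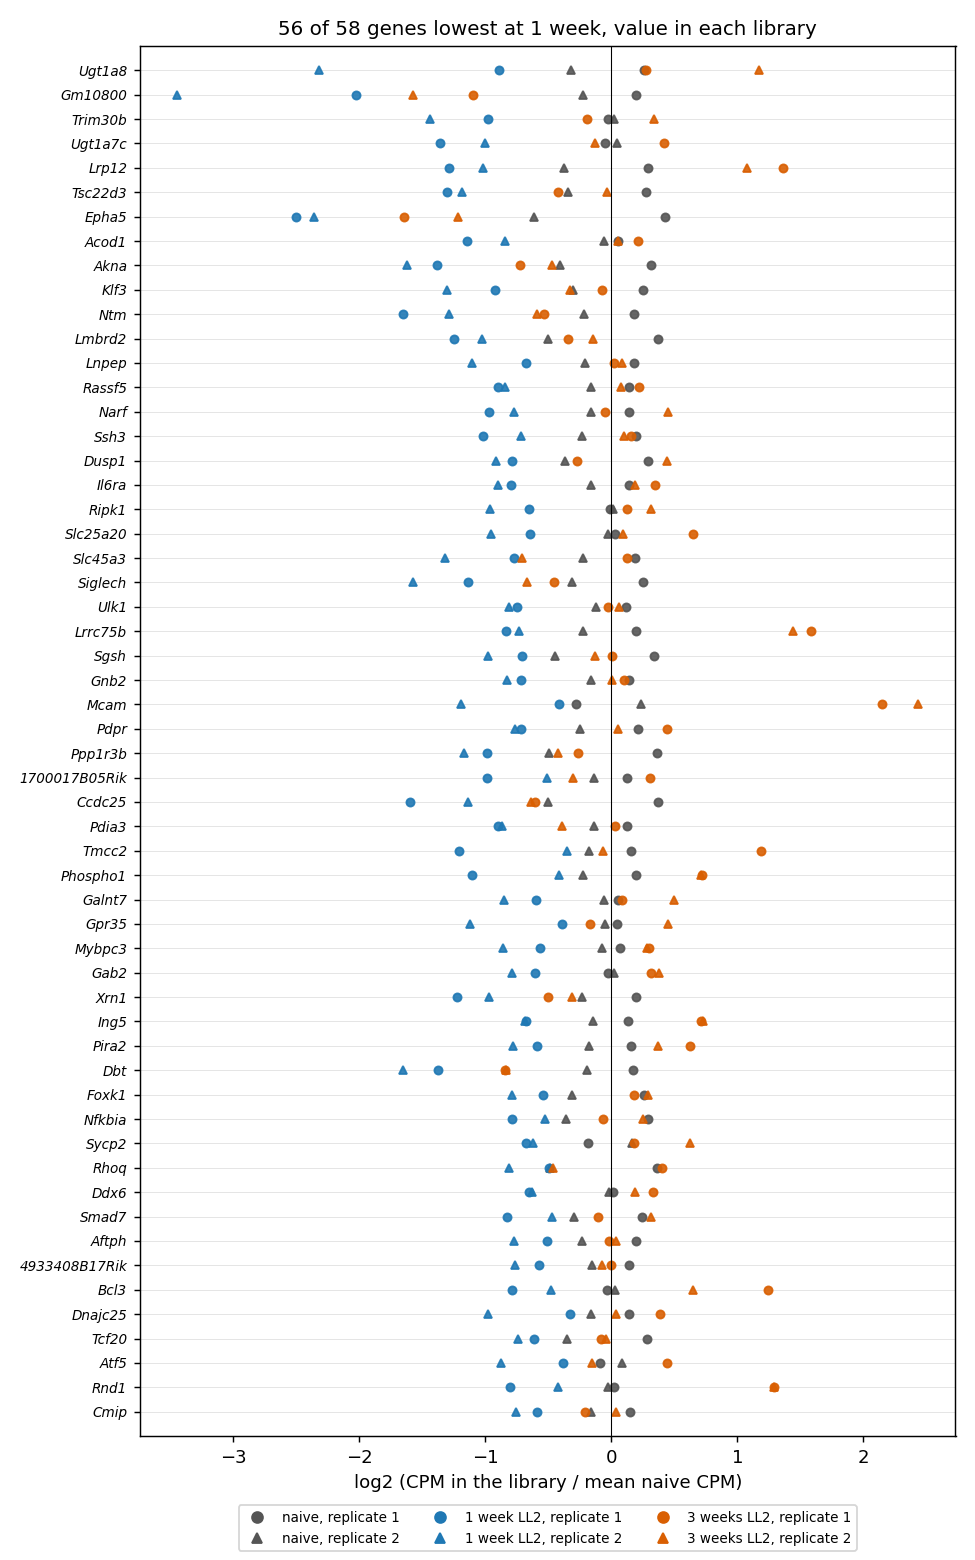
Level of 56 of the 58 genes in each library, as log2 of its CPM divided by the mean naive CPM, for naive (grey), one-week (blue) and three-week (orange) libraries, with circles for replicate 1 and triangles for replicate 2. Blue points lie left of all others in every row, as the rule required, and orange points lie on both sides of the naive ones.

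Counts were tested across 12259 genes with edgeR (quasi-likelihood, TMM scaling, a single model of the 6 libraries), and a gene was called at a Benjamini-Hochberg adjusted p under 0.05. At 1 week against naive, 46 of the 58 genes were called lower, where 3.76% of all genes tested were. At 3 weeks against 1 week, 55 were called higher, where 12.9% of all genes were. Both calls were made for 44 genes and neither for 1, Slc45a3. The rule used both contrasts, so nothing is read from these counts. The first count rested on the libraries: it was 15 without naive replicate 1, 25 without one-week replicate 1 and 22 without one-week replicate 2, and the share of all genes changed as well, from 461 genes to 63, 115 and 104. The median log2 fold change of the 58 genes was -0.85 at 1 week against naive and 1.15 at 3 weeks against 1 week, beside 0.01 and -0.02 over all genes tested. With library totals in place of TMM the all-gene medians were 0.07, -0.22 and, at 3 weeks against naive, -0.11.

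At 3 weeks against naive, 10 of the 58 genes (17.2%) rose, beside 12% of all genes tested and 15.7% of the 7242 genes that reached the naive level. Another 5 (8.62%) fell, beside 9.42% and 12.6%. These shares were near the background. For the other 43 genes no difference was called, which does not show that they came back to the naive level. For 33 genes both calls against the one-week group were made and none between 3 weeks and naive. The rule used both contrasts against the one-week group, and the share over all genes was not computed. Nothing is read from this count. By libraries alone, both three-week values lay above both naive values in 17 genes (23.8% of the 7242 genes did), below them in 10 (41.9% of the 7242) and overlapped them in 31. The rule keeps three-week values up, so nothing is read from these shares. The set was thus defined by its low level at 1 week, and its rule does not say that a gene was at the naive level at 3 weeks.

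**Figure D2:**
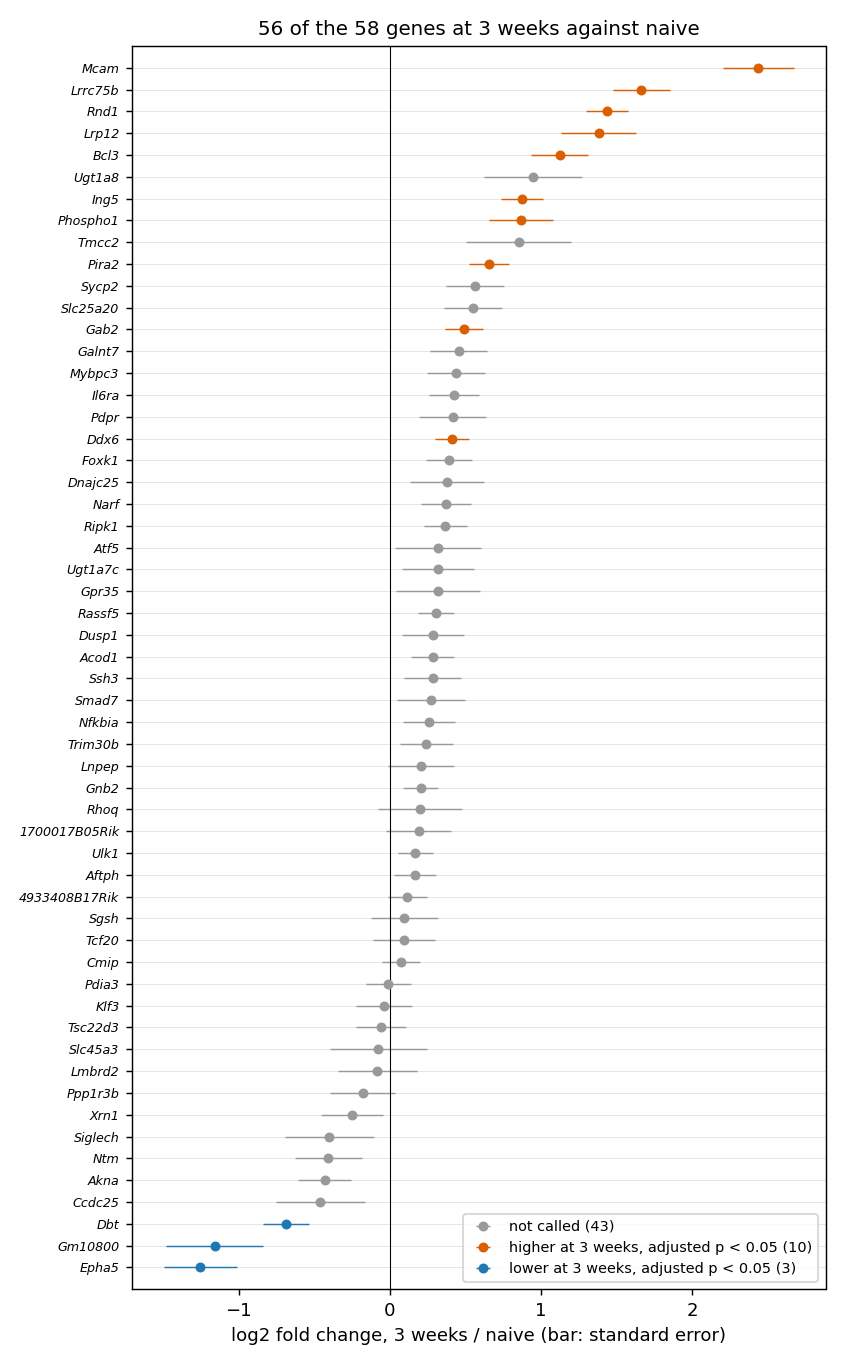
The log2 fold change at 3 weeks against naive for 56 of the 58 genes (points) with its standard error (bars), from edgeR, with 10 genes called higher in orange, 3 of the 5 called lower in blue and 43 not called in grey. Mcam is at the top with 2.44 and Epha5 at the bottom with -1.25.

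The gene with the largest rise was Mcam, a cell adhesion molecule of the immunoglobulin superfamily. It had 5.17 and 7.36 CPM in naive libraries, 4.72 and 2.74 at 1 week, and 27.8 and 33.9 at 3 weeks. Both three-week values were far above all others, while naive replicate 1 was only a little above one-week replicate 1. The log2 fold change at 3 weeks against naive was 2.44 ± 0.24 (SE, n = 2 libraries per group, edgeR's quasi-likelihood test, adjusted p = 1.42e-05). Rnd1, an atypical small GTPase that loosens actin fibers, had 44.8 and 43.5 CPM in naive libraries, 25.3 and 33.0 at 1 week and 108 in each three-week library. It rose by 1.44 ± 0.14 on the log2 scale (edgeR, adjusted p = 1.46e-05). Lrrc75b, a leucine-rich repeat gene, had 8.004 and 5.99 CPM, then 3.93 and 4.23, then 21.0 and 19.0, and rose by 1.66 ± 0.19 (edgeR, adjusted p = 5.35e-05).

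Ing5, a reader of histone methylation in acetyltransferase complexes, had 23.7 and 19.5 CPM in naive libraries, 13.5 in both one-week libraries, and 35.5 and 35.7 at 3 weeks. Bcl3, an atypical member of the inhibitor family of NF-kB that acts in the nucleus, had 26.2 and 27.3 CPM, then 15.5 and 19.2, then 63.3 and 41.8. In both genes the groups did not overlap, and the order was three-week, naive, one-week. The log2 fold change at 3 weeks against naive was 0.87 ± 0.14 for Ing5 (edgeR, adjusted p = 0.000662) and 1.12 ± 0.19 for Bcl3 (edgeR, adjusted p = 0.00103). Lrp12, a lipoprotein receptor relative, rose by 1.38 ± 0.25, Pira2, an activating immunoglobulin-like receptor of myeloid cells, by 0.65 ± 0.13, Phospho1, a phosphatase, by 0.87 ± 0.21, Gab2, a docking adaptor, by 0.49 ± 0.12, and Ddx6 by 0.41 ± 0.11, with edgeR adjusted p between 0.00145 for Lrp12 and 0.0188 for Ddx6. Calls of Gab2 and Ddx6 were lost under 3 and 5 of 12 other settings and that of Phospho1 under 1.

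The genes that fell at 3 weeks against naive included Epha5, Gm10800 and Dbt. Epha5, an ephrin receptor, had 76.8 and 37.3 CPM in naive libraries, 10.1 and 11.1 at 1 week, and 18.3 and 24.6 at 3 weeks. Naive replicate 1 was well above replicate 2, which in turn was above both three-week libraries. The log2 fold change at 3 weeks against naive was -1.25 ± 0.24 (edgeR, adjusted p = 0.00262). Dbt, a subunit of the complex that breaks down branched-chain keto acids, had 41.7 and 32.5 CPM, then 14.3 and 11.8, then 20.7 and 20.8, and fell by 0.69 ± 0.15 (edgeR, adjusted p = 0.00581). Gm10800 fell by 1.16 ± 0.32 (edgeR, adjusted p = 0.0204). The call of Gm10800 was lost under 2 and that of Dbt under 1 of the 12 other settings, and without naive replicate 1 the genes called lower numbered 3.

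The genes of the set were grouped by role after their values had been seen, so the groups below order the text and are no evidence. The first group held 9 genes of inflammatory and hormone-responsive signalling. Tsc22d3 (chrX:140539528-140600659 in GRCm38), a leucine zipper protein that mediates glucocorticoid effects, had 362 and 235 CPM in naive libraries, 121 and 131 at 1 week, and 223 and 292 at 3 weeks. Naive and three-week values overlapped and both one-week values were far below them. The log2 difference between 3 weeks and naive was -0.06 ± 0.17 (edgeR, adjusted p = 0.843). Dusp1, which removes phosphates from MAP kinases, had 2445 and 1553 CPM, then 1156 and 1059, then 1659 and 2722. Nfkbia had 763 and 486 CPM, then 362 and 434, then 599 and 742. In both genes, as in Tsc22d3, naive replicate 1 was the higher naive library by a wide margin and naive replicate 2 lay nearer to the one-week values. Three-week against naive differences were 0.29 ± 0.20 for Dusp1 and 0.26 ± 0.17 for Nfkbia, neither called.

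Acod1, the enzyme that makes itaconate in activated myeloid cells, had 37.5 and 34.6 CPM in naive libraries, 16.4 and 20.1 at 1 week, and 41.8 and 37.4 at 3 weeks. Ripk1, a kinase of the tumor necrosis factor receptor complex, had 32.3 and 32.8 CPM, then 20.6 and 16.7, then 35.5 and 40.4. The naive replicates of these genes lay close together, and the one-week values were apart from all others. Akna, a DNA-binding protein of leukocytes, had 210 and 127 CPM, then 64.7 and 54.8, then 102 and 122, with both three-week values below both naive ones and no call between them (log2 difference -0.43 ± 0.17, edgeR, adjusted p = 0.0984). Il6ra, the receptor of interleukin 6, and Smad7, an inhibitor of transforming growth factor beta signals, completed the group with naive to one-week ratios of 1.80 and 1.55.

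On the list with Tsc22d3, Dusp1 and Nfkbia were 30 genes that respond to glucocorticoids, of which 29 were tested. At 1 week against naive 6 of the 29 were called lower and 1 higher, where 3.76% of all genes tested were lower. As 3 of the 6 were chosen by the rule, the count outside the set was 3 of 26. The list had a median log2 fold change of -0.29 at 1 week beside 0.01 over all genes. At 3 weeks against 1 week 14 were higher, 11 of them outside the set, and 1 lower, where 12.9% of all genes were higher. Against naive, 13 were higher and 3 lower at 3 weeks, where 12% and 9.42% of all genes were. Of 24 listed genes that reached the naive level, 8, with the 3 of the set, had both one-week libraries below all others, as did 10.8% of the 7242 genes. The 3 genes of the set were among those lower at 1 week. Beside them, Per1, a clock gene, Irs2, an insulin receptor substrate, and Klf9, a transcription factor, were lower, named here after their values were seen. Per1 had 88.5 and 43.8 CPM in naive libraries, 23.6 and 26.3 at 1 week, and 31.4 and 36.6 at 3 weeks. Irs2 lay near the limit of 5 CPM, with 4.92 and 5.18, then 2.14 and 1.49, then 1.91 and 1.72 CPM. Its three-week values lay between its one-week values. Fkbp5, a chaperone partner of the receptor and one of its best known targets, had 42.4 and 35.8 CPM, then 40.4 and 32.8, then 99.4 and 56.9, with no difference called at 1 week (log2 fold change -0.15, edgeR, adjusted p = 0.74). Anxa1, which encodes annexin A1, was the 1 listed gene called higher at 1 week. Its log2 fold change was 0.97 (edgeR, adjusted p = 0.00568), so listed genes were called in both directions at 1 week.

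**Figure D3:**
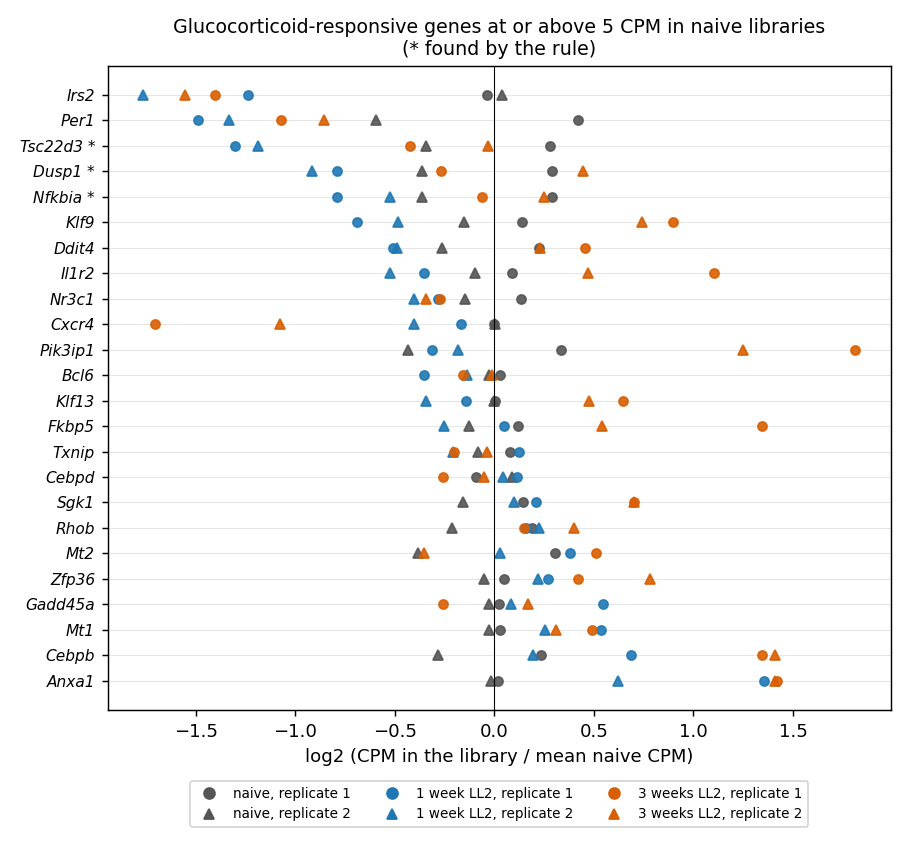
Level in each library of the 24 listed glucocorticoid-responsive genes that reached 5 CPM in naive libraries, as log2 of CPM divided by the mean naive CPM, ordered by the one-week mean and with the same colors and marks as for the 58 genes. Genes from Irs2 to Ddit4 have one-week points on the left, and Anxa1 at the bottom has all one-week and three-week points on the right. The three-week points of Irs2 lie between its one-week points.

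The next group held 8 genes of GTPase, G protein, adaptor and kinase signalling. Rassf5, an effector of Rap GTPases that helps to switch on leukocyte integrins, had 508 and 411 CPM in naive libraries, 247 and 256 at 1 week, and 535 and 487 at 3 weeks. Gnb2, a beta subunit of heterotrimeric G proteins, which carry chemoattractant signals, had 991 and 806 CPM, then 549 and 508, then 962 and 901. Ulk1, the kinase that starts autophagy, had 91.3 and 77.4 CPM, then 50.3 and 48.1, then 82.9 and 88.0. One-week values of these genes lay well apart from all others and differed little between replicates. Cmip, a signalling adaptor, had 427 and 344 CPM, then 256 and 228, then 334 and 397. Gab2 had 43.6 and 44.9 CPM, then 29.2 and 25.6, then 55.1 and 57.5. Rhoq, a GTPase related to Cdc42, was the least separated gene of the set, since naive replicate 2 had 12.1 CPM and one-week replicate 1 also 12.1, with a ratio of 1.01 between the lowest other and the highest one-week library. Ssh3, a cofilin phosphatase, had a naive to one-week ratio of 1.81.

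The lists of pathway genes around these members are read against the 3.76% of all genes tested that were lower at 1 week. On the list of small GTPases with their exchange factors and GAPs, which holds Rassf5 and Rhoq, 8 of 80 tested genes were called lower and 3 higher at 1 week against naive. For heterotrimeric G proteins and their regulators, which holds Gnb2, the counts were 3 lower and 1 higher of 39, and for mTORC1, Rag GTPase and AKT-GSK3 signalling, which holds Ulk1, 4 lower and 2 higher of 52. Leukocyte phosphatases, with Dusp1, had 4 lower and 1 higher of 54. These counts include genes the rule chose, and outside the set the numbers lower were 7 of 78, 2 of 38, 3 of 51 and 3 of 53. At 3 weeks against 1 week the same lists had 16, 11, 10 and 15 genes higher and 8, 7, 2 and 9 lower. Their median log2 fold changes at 1 week lay between -0.07 and -0.03. At 3 weeks against naive the numbers higher and lower were 9 and 9, 10 and 8, 6 and 5, and 10 and 10.

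RNA decay and transcription made a group of 7 genes. Ddx6, a helicase that represses translation and promotes decapping, had 389 and 382 CPM in naive libraries, 246 and 249 at 1 week, and 484 and 440 at 3 weeks, so that replicates were close and the 3 groups did not overlap. Xrn1, the exonuclease that degrades decapped RNA from its 5′ end, had 12.8 and 9.55 CPM, then 4.79 and 5.71, then 7.93 and 9.02. Its three-week values lay between the other groups, with no call against naive (log2 difference -0.25 ± 0.21, edgeR, adjusted p = 0.433). On the list of mRNA decay and translational repression, 7 of 59 tested genes were called lower and 1 higher at 1 week, and 13 were higher and 1 lower at 3 weeks against 1 week. Outside the set 5 of 57 were lower at 1 week and 11 higher at 3 weeks against 1 week, beside 3.76% and 12.9% of all genes. Klf3, a repressor of the Krüppel-like family, had 28.7 and 19.5 CPM, then 12.7 and 9.78, then 22.9 and 19.2. Foxk1, a forkhead factor, Tcf20, a chromatin-associated coregulator, and Atf5, a stress-responsive leucine zipper factor, had naive to one-week ratios of 1.58, 1.596 and 1.52.

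Surface receptors and innate immunity made a group of 6 genes, with a ratio of the three-week to the naive mean between 0.680 and 4.93. Pira2 had 229 and 181 CPM in naive libraries, 137 and 119 at 1 week, and 315 and 265 at 3 weeks. Its near relative Pirb, whose reads may be shared with it, had 246 and 272 CPM, then 236 and 246, then 456 and 428, and no difference was called at 1 week against naive (log2 fold change -0.16, edgeR, adjusted p = 0.457). Trim30b, of a family of interferon-inducible ubiquitin ligases, had 57.4 and 59.3 CPM, then 29.7 and 21.5, then 51.0 and 73.9. Summed with its relatives Trim30a and Trim30d, the level was 239 and 255 CPM, then 185 and 167, then 298 and 322. That sum includes Trim30b, which the rule chose, so nothing is read from it. Neither Trim30a nor Trim30d was called at 1 week against naive (log2 fold changes -0.35 and -0.47, edgeR, adjusted p = 0.113 and 0.0606). Lrp12 had 6.42 and 4.05 CPM, then 2.14 and 2.58, then 13.4 and 11.02, with the three-week values well above all others. Siglech, a lectin of plasmacytoid dendritic cells, had 6.92 and 4.69 CPM, then 2.64 and 1.96, then 4.25 and 3.65. Gpr35, an orphan receptor of leukocytes, had 6.67 and 6.23 CPM, then 4.93 and 2.97, then 5.73 and 8.80.

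Endoplasmic reticulum, metabolic and transport genes made the largest group, with 13 genes. Pdia3, a disulfide isomerase that folds glycoproteins, had 79.1 and 65.9 CPM in naive libraries, 38.9 and 39.7 at 1 week, and 74.2 and 55.3 at 3 weeks, with no call between 3 weeks and naive (log2 difference -0.01 ± 0.15, edgeR, adjusted p = 0.969). On the list of ER folding and stress genes, 3 of 39 tested were called lower at 1 week and 1 higher, and 2 of the 38 outside the set were lower. At 3 weeks 14 were higher and 2 lower than at 1 week, and all-gene shares were 3.76% and 12.9%. Slc25a20, which carries acylcarnitines into mitochondria, had 19.9 and 19.2 CPM, then 12.5 and 10.1, then 30.7 and 20.9. Ppp1r3b, which targets a phosphatase to glycogen, had 29.0 and 16.0 CPM, then 11.4 and 10.02, then 18.8 and 16.8. Lnpep, an aminopeptidase of insulin-regulated vesicles, had 9.34 and 7.12 CPM, then 5.14 and 3.84, then 8.35 and 8.73. Dnajc25, Pdpr, Sgsh, Galnt7 and Slc45a3 had naive to one-week ratios of 1.53, 1.67, 1.78, 1.64 and 2.02.

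Ugt1a8 and Ugt1a7c, which encode enzymes that couple glucuronic acid to drugs and bilirubin, share exons with other genes of the Ugt1a locus, and their values are uncertain. Ugt1a8 had 36.9 and 24.7 CPM in naive libraries, 16.6 and 6.18 at 1 week, and 37.4 and 69.5 at 3 weeks. Ugt1a7c had 8.34 and 8.90 CPM, then 3.36 and 4.30, then 11.5 and 7.87. Their neighbour Ugt1a9 had 0.5 and 105 CPM in the 2 naive libraries, and how reads of shared exons were divided among these genes cannot be told from the counts. Summed over the 5 Ugt1a genes with counts, the level was 136 and 167 CPM in naive libraries, 139 and 149 at 1 week, and 229 and 240 at 3 weeks. The sum at 1 week lay between the 2 naive values, so the locus as a whole was not lowest at 1 week.

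Epha5 and Ntm, a neuronal adhesion molecule, are best known from neural tissue. Ntm had 11.5 and 8.74 CPM in naive libraries, 3.22 and 4.15 at 1 week, and 7.01 and 6.73 at 3 weeks, with both three-week values between the other groups. The naive to one-week ratio was 5.38 for Epha5 and 2.75 for Ntm, beside a median of 1.73 over the whole set. Naive replicate 1 was above replicate 2 in both. Their genomic spans were 362622 bp and 968392 bp, beside a median of 30013 bp over the 58 genes and 24258 bp over the 7242.

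Another 11 genes had no common role. Gm10800, a predicted gene in sequence with copies elsewhere, so that its reads are uncertain, had 12.7 and 9.47 CPM in naive libraries, 2.72 and 1.02 at 1 week, and 5.17 and 3.72 at 3 weeks. It had the largest naive to one-week ratio of the set, 5.93. Narf, a binding partner of prelamin A, had 40.8 and 33.2 CPM, then 18.9 and 21.7, then 35.7 and 50.5. Lmbrd2 had 10.9 and 5.99 CPM, then 3.57 and 4.15, then 6.65 and 7.66. Aftph, a vesicle trafficking protein, had 91.6 and 68.1 CPM, then 56.0 and 46.9, then 79.0 and 82.2. Mybpc3, known from heart muscle, and Sycp2, of the meiotic chromosome axis, had ratios of 1.63 and 1.56, and Ccdc25, Tmcc2, 1700017B05Rik and 4933408B17Rik of 2.54, 1.65, 1.66 and 1.59.

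The naive libraries differed from each other in these genes. Naive replicate 1 was above naive replicate 2 in 50 of the 58 genes (86.2%), as it was in 65.1% of the 7242 genes. The median log2 ratio of replicate 1 to replicate 2 was 0.35 in the set and 0.10 in the 7242 genes. For 33 genes naive replicate 2 was the lowest library outside the one-week group. Replicate 1 was the higher one-week library in 58.6% of the 58 genes and 58.9% of the 7242, and the higher three-week library in 55.2% and 43.2%. With naive replicate 1 left out, the rule found 50 genes, 37 of them among the 58, and with naive replicate 2 left out 81 genes, with 55 of the 58. The part of the difference between the naive libraries in the pattern was not tested.

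**Figure D4:**
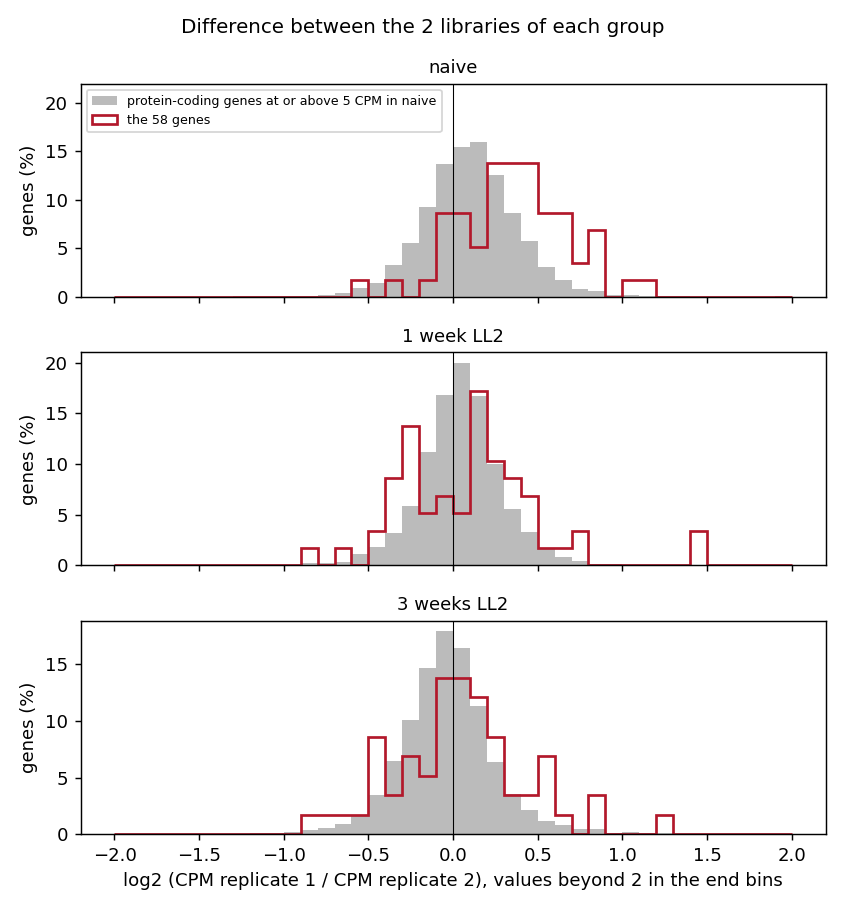
Distribution of the log2 ratio of replicate 1 to replicate 2 in CPM within each group, as a percent of genes, for the 58 genes (red line) and for the 7242 protein-coding genes that reached 5 CPM in naive libraries (grey). In the naive panel the red line sits to the right of the grey bars, with medians of 0.35 and 0.10.

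Features that the rule did not use are given as descriptions, with no test. The median annotated transcript length of the 58 genes was 4152 nt beside 3196 nt over the 7242 genes. It was 3752 nt over the 785 with both one-week libraries lowest. Median GC content of transcripts was 48.3%, 49.7% and 49.1%, and the median number of distinct exons 15, 20 and 21. The genes lay on 18 chromosomes, with 7 (12.1%) on chromosome 1, which held 5.83% of the 7242 genes. Ugt1a8 and Ugt1a7c, which overlap, were among the 7. Of the 58, 12 overlapped another gene with counts, among them Dusp1 with Ergic1 and Rassf5 with Eif2d. The share of all genes with such an overlap was not computed. Without a stated use of strand in the counting, reads of overlapping genes cannot be told apart. Ergic1 had 9.65 to 14.2 CPM and Eif2d 1.83 to 3.68 CPM, far below their partners. For most of the other overlaps no such values are given here.

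Other lists gave few or no genes to the set. Chromatin regulators, splicing and nuclear RNA-binding proteins, RNA polymerase II with Mediator, actin and myosin, the nuclear envelope, ubiquitin genes, and hexose and monocarboxylate transport had none. At 1 week against naive 9 of 81 chromatin regulators and 8 of 83 splicing genes were called lower, with 1 splicing gene higher, and 5 of 40 nuclear envelope genes lower, beside 3.76% of all genes tested. Actin and myosin genes had 4 lower and 4 higher of 70, ubiquitin genes 4 lower and 1 higher of 60, transport genes 1 lower of 15, and RNA polymerase II genes 3 higher of 63. Of the 12259 genes tested, 518 were higher at 1 week. Malat1, a nuclear noncoding RNA outside the rule, had 2574 and 1982 CPM in naive libraries, 1277 and 1243 at 1 week, and 1678 and 1498 at 3 weeks. It was lower at 1 week by a log2 fold change of -0.90 (edgeR, adjusted p = 0.00138) and stood between the groups at 3 weeks.

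No marker list of the 9 had both its one-week sums below all other libraries. Siglech was the 1 gene on a marker list, that of monocytes, macrophages and dendritic cells, whose 18 genes summed to 1271 and 1302 CPM in naive libraries, 1350 and 1415 at 1 week, and 1211 and 1085 at 3 weeks. The sum was not lower at 1 week, but Ly6c2 carried much of it, with 614 and 725 CPM in naive libraries and 804 and 836 at 1 week. Of the 17 tested, 2 were called lower at 1 week against naive, Siglech among them, and 0 higher. Outside the set 1 of 16 was lower. The list median log2 fold change was 0.05, and 3.76% of all genes tested were lower. Eosinophil, basophil and mast cell markers (13 genes, Ms4a2 at 3 counts or fewer in every library) summed to 89.3 to 102 CPM in naive libraries, 135 to 148 at 1 week and 64.5 to 78.1 at 3 weeks. Of 9 tested, 4 were higher at 1 week than in naive libraries, beside 518 of all 12259 genes tested. T and NK cell markers (16 genes, Trac at 0 and Ncr1 and Gzmb at 3 counts or fewer) summed to 51.9 CPM in one-week replicate 2 and 12.7 to 24.6 elsewhere. The 15 B lineage markers summed to 71.1 to 99.9 CPM in naive and one-week libraries and to 17.7 to 25.3 at 3 weeks. There 13 of 13 tested were lower than in naive libraries, beside 9.42% of all genes tested. Immature neutrophil markers summed to 40376 to 45002 CPM in naive and one-week libraries and 20606 to 25289 at 3 weeks, a sum carried by Camp, Ngp and Ltf. Single immature markers went both ways at 3 weeks against naive, with 6 of 12 higher and 5 lower, beside 12% and 9.42% of all genes tested. Their median log2 fold change was 0.66, and Mpo had 36.8 and 23.1 CPM in naive libraries and 109 and 156 at 3 weeks. Mature neutrophil markers summed to 23679 to 27106 CPM in all libraries. Erythroid markers ran from 565 to 1645 CPM and megakaryocyte and platelet markers from 127 to 219. The part of these shifts in the values of the 58 genes was not tested, and in bulk RNA fewer cells of a type and less RNA per cell cannot be told apart.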

How the data were processed

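Ly6G-positive bone marrow neutrophils were profiled by total RNA-seq in 6 libraries, 2 per group. The authors deposited expected counts per gene from RSEM with Bowtie2 against mm10 and Ensembl genes, rounded to whole numbers and not normalized between libraries. The submitters' processing notes give RSEM 1.2.31. Whether counting used strand is not given in the sources used here.

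CPM by library total set the rule. Symbols and positions came from GENCODE annotation of GRCm38 (37570 of 38887 identifiers matched) and upstream sequences from RefSeq. The counts were tested with edgeR 4.0.16 in R 4.3.3 after filterByExpr, which left 12259 genes, with TMM factors of 0.9134 to 1.072 and the group as the only term. The limit of 3 counts covers counting error only, since PCR reads are not independent molecules.

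The 58 genes, the 14 functional and 9 marker lists and the rule for genes named were chosen with earlier results of these data known. Any gene of the set could be named. Values in each library were given for the 15 with the largest smaller ratio, the 10 with most naive CPM, up to 6 per list, up to 5 with the smallest adjusted p in each direction at 3 weeks against naive, and 3 on each side of the fold limit, and for others chosen after their values were seen. Alternatives were DESeq2 1.42.0, other scaling, no filter, offsets for length and GC content, a replicate block, other rule limits, and each library left out in turn. Values of 2 of the 58 genes are not reported here, and plots of single genes leave them out.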

Additional observations from a re-analysis of the deposited data

How the results depend on the processing

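On other scalings the rule found more genes, always with all 58 among them: 115 with TMM-scaled CPM, 124 with DESeq2's size factors and 155 after correction for length and GC content. A fold limit of 2 left 7. Without a single library it found 50 to 87 genes. Among all genes, those lower at 1 week against naive numbered 461, and 263 with library totals only, 699 without a filter on low counts and 63 to 559 without 1 library. Genes higher at 3 weeks against 1 week numbered 1586, 856 with library totals and 853 to 1609 without 1 library (908 and 853 without one-week replicate 1 and 2). At 3 weeks against naive 1471 were higher, 890 with library totals and 729 to 1250 without 1 library, with 729 without naive replicate 1. Of 1155 that were lower, 633 to 1142 were called without 1 library (633 without naive replicate 1, 730 without three-week replicate 1). With library totals, higher and lower calls at 1 week went from 518 and 461 to 575 and 263, and the balance turned in the other comparisons, from 1586 and 1173 to 856 and 2136 at 3 weeks against 1 week, and from 1471 and 1155 to 890 and 1675 at 3 weeks against naive. Among the 58 genes, 15 to 51 were lower at 1 week, 44 to 57 higher at 3 weeks against 1 week, and 9 to 13 higher and 3 to 6 lower at 3 weeks against naive without 1 library. A fit that leaves a group with 1 library assumes that it varies like the others. The causes of these shifts were not tested. Of 180 fold changes for the 15 genes called at 3 weeks against naive under 12 alternatives, 168 kept call and direction, 12 lost the call and 0 reversed.

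The labels do not say whether same-numbered libraries were handled together. The correlation of deviations of same-numbered libraries was 0.0101, 0.0364 and 0.0379. With 2 libraries per group each deviation rests on a single difference, so these values cannot exclude a pairing. With the replicate block 438 genes were lower at 1 week, 1532 higher at 3 weeks against 1 week, and 1445 higher and 1114 lower at 3 weeks against naive, where 18 of the 58 genes were called. The standard error of the log2 fold change at 3 weeks against naive was 0.16 to 0.35 in the 30 genes below 20 CPM and 0.11 to 0.20 in the 9 genes at 100 CPM or more, so that smaller differences could be called at higher counts.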
